A study of Mus musculus with 10 samples.

Results

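Socs2, Socs3 and Cish encode inducible inhibitors of cytokine signalling, and their chromatin loops were examined in Hi-C data from mouse bone marrow-derived macrophages (BMDMs). Hi-C ligates and counts pairs of DNA fragments that lie close together in the nucleus, and a loop here is a pair of 10 kb bins that the deposited list of a group calls as a contact. A loop was assigned to a gene when either of its bins overlapped the 100 kb on either side of the gene's transcription start site (TSS; GENCODE release 21, GRCm38). This rule took 3 of 21755 protein-coding genes on the autosomes and the X chromosome, and no measured level entered it. The 3 windows held 196 of 53424 loops in the list of control cells (M0[CTR]), 220 of 58260 with IL-4 present (M2[IL-4]), 238 of 67728 after its washout (M2p[pIL-4]), 190 of 55012 with interferon-gamma (IFNG) and 223 of 67000 with both in sequence (pIL-4 + IFNG), and values below keep this order of groups unless they name them. Each group has 2 samples and 1 list, and how a list joins its samples is not given in the sources used here. The samples came from wild type female C57BL/6 mice of 2 to 3 months. All cells were grown from bone marrow with 20 ng/ml M-CSF and were treated on day 6 of differentiation. M0[CTR] received no cytokine besides M-CSF. M2[IL-4] was exposed to 20 ng/ml interleukin-4 (IL-4) for 24 h, and M2p[pIL-4] had the same exposure, 3 washes and 24 h of rest. IFNG had 20 ng/ml interferon-gamma for 3 h. The pIL-4 + IFNG group went through IL-4, washout and rest before the same 3 h of interferon-gamma. The lists hold no value for a single replicate, so differences could not be set against the spread between replicates and no p-value is given. Intervals are exact 95% intervals that cover counting error only.

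Cytokine receptors signal through Janus kinases (JAKs), which phosphorylate STAT transcription factors such as STAT6, which carries the IL-4 signal. SOCS proteins and CIS, the product of Cish, are induced by STATs and act back on the pathway through an SH2 domain that binds phosphotyrosine and a SOCS box that recruits a ubiquitin ligase. CIS and SOCS2 are best known as inhibitors of STAT5 signalling, and SOCS3 as the inhibitor of gp130 receptors and STAT3. Loops of many mammalian loci end at CTCF sites, which are bound by the zinc finger protein CTCF and often face each other.

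Socs2 (ENSMUSG00000020027.18) lies on the minus strand of chromosome 10 (95385362-95417180), Socs3 (ENSMUSG00000053113.3) on the minus strand of chromosome 11 (117966079-117970047) and Cish (ENSMUSG00000032578.7) on the plus strand of chromosome 9 (107296026-107302784). The promoter letters that STAT dimers recognise were shown first, because these genes are STAT targets. The motif TTCNNNGAA, which reads the same on both strands, occurred once in the RefSeq promoter window of Socs3 and at 2 places in that of Cish (GRCm38.p6; 250 bases before to 50 after the start). It occurred in 8.30% of all 32851 windows, and the wider spacing TTCNNNNGAA, found in 6.95%, was in neither. The motif is in capitals.
Socs3, chr11:117969506-117969526, minus strand: ccagccTTCTTAGAAgggagg
Cish, chr9:107296653-107296673, plus strand: ccagttTTCCTGGAAagttct
Cish, chr9:107296664-107296684, plus strand: ggaaagTTCTTGGAAatctgt

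The Socs3 match begins 154 bases upstream of the RefSeq start. The Cish matches begin at the first base of the RefSeq transcript and 11 bases into it, and overlap in the bases shown. No Socs2 promoter window was used here.

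Matches to the 14-base CTCF consensus were shown next, because some loops of these genes end in bins that hold them. With at most 1 mismatch on either strand, 22.6% of all 10 kb bins of chromosomes 9, 10 and 11 held a match, against 32.5% of the bins that any list used as a loop end there. In the windows of the genes it was 3 of 21 bins for Socs2 (14.3%), 4 of 21 for Socs3 (19.0%) and 8 of 21 for Cish (38.1%), so the Socs2 and Socs3 windows did not hold more of these matches than other bins. Without a mismatch the shares were 2.80% of all bins and 5.63% of loop ends. The windows then held 0 of 21 bins for Socs2, 2 of 21 for Socs3 (9.52%) and 3 of 21 for Cish (14.3%). At this stricter setting the Socs3 and Cish shares were thus above both, on few bins. The lines below (GRCm38) show some of the matches in the TSS bins and in the end bins of pairs called in all 5 lists, and leave out others. The Socs2 partner bins shown lie outside its window and are not among its 21 bins. The match is in capitals and is written along its own strand.
Socs2 partner bin, chr10:95091351-95091380, plus strand: cagcaaatCCAGCAGGGGGCTCggctcctt
Socs2 partner bin, chr10:95104024-95104053, plus strand: tccatgctCCAGTAGATGGCCCcacactca
Bin upstream of Socs2, chr10:95422269-95422298, minus strand: ctcagaagCCAGAAGGTGGCACttggtccc
Bin further upstream of Socs2, chr10:95476152-95476181, minus strand: cgacgaaaCCGCCAGAGGGCACtgtgacac
Tha1 bin near Socs3, chr11:117870823-117870852, plus strand: ccatctgtCCACTAGAGGGCAGtaaggcac
Socs3 TSS bin, chr11:117970066-117970095, plus strand: ccccgagtCCACCAGAGGGCGCgctggagt
Cish TSS bin, chr9:107294415-107294444, plus strand: aaggatcgCCACTGGGTGGCAGtgtgggcc
Hemk1 bin near Cish, chr9:107336089-107336118, minus strand: ccagacttCCTCCAGGGGGCGCtcgggccc
Bin beyond Hemk1, chr9:107357806-107357835, plus strand: cactctgaCCACCAGGTGGCAGtacatgtc

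Of these, the matches in the Tha1 bin, in the Socs3 TSS bin and in the bin beyond Hemk1 had no mismatch. The centre of the match in the Socs3 TSS bin lay 33 bases from the annotated TSS. The bin beyond Hemk1 also held a minus strand match with 1 mismatch (107356182-107356211), which is not shown. These are matches of letters, and CTCF binding was not measured.

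The 3 loci differed in how many loops they held. Their order was the same in all 5 lists while touching bin pairs counted as separate loops. Within 100 kb of the Socs2 TSS, 122 loops were called in control cells, 139 with IL-4, 150 after washout, 104 with interferon-gamma and 126 with pIL-4 + IFNG. Socs3 had 56, 65, 69, 66 and 76 loops in the same order of groups. Cish had 18, 16, 19, 20 and 21. Socs2 stood above 99.4 to 99.9% of protein-coding genes in these lists, Socs3 above 94.9 to 96.7% and Cish above 65.1 to 71.6%, where the median gene had 6 to 8 loops. The contacts in these loops came to 2684, 3122, 3520, 2318 and 2816 for Socs2. They came to 2404, 2811, 3281, 3337 and 3656 for Socs3, and to 1116, 924, 1256, 1384 and 1369 for Cish. For Socs2 the IFNG list was lowest and the M2p[pIL-4] list highest, for Socs3 M0[CTR] was lowest and pIL-4 + IFNG highest, and for Cish M2[IL-4] was lowest, on loops and on contacts alike except that the highest contacts of Cish were in IFNG. The M2p[pIL-4] loops of Socs2 include pairs with a far bin (95010001-95020000) that no other list called for this gene. The 2 longest lists were those of M2p[pIL-4] and pIL-4 + IFNG, so these raw numbers are read only after scaling to list length.

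**Figure D1:**
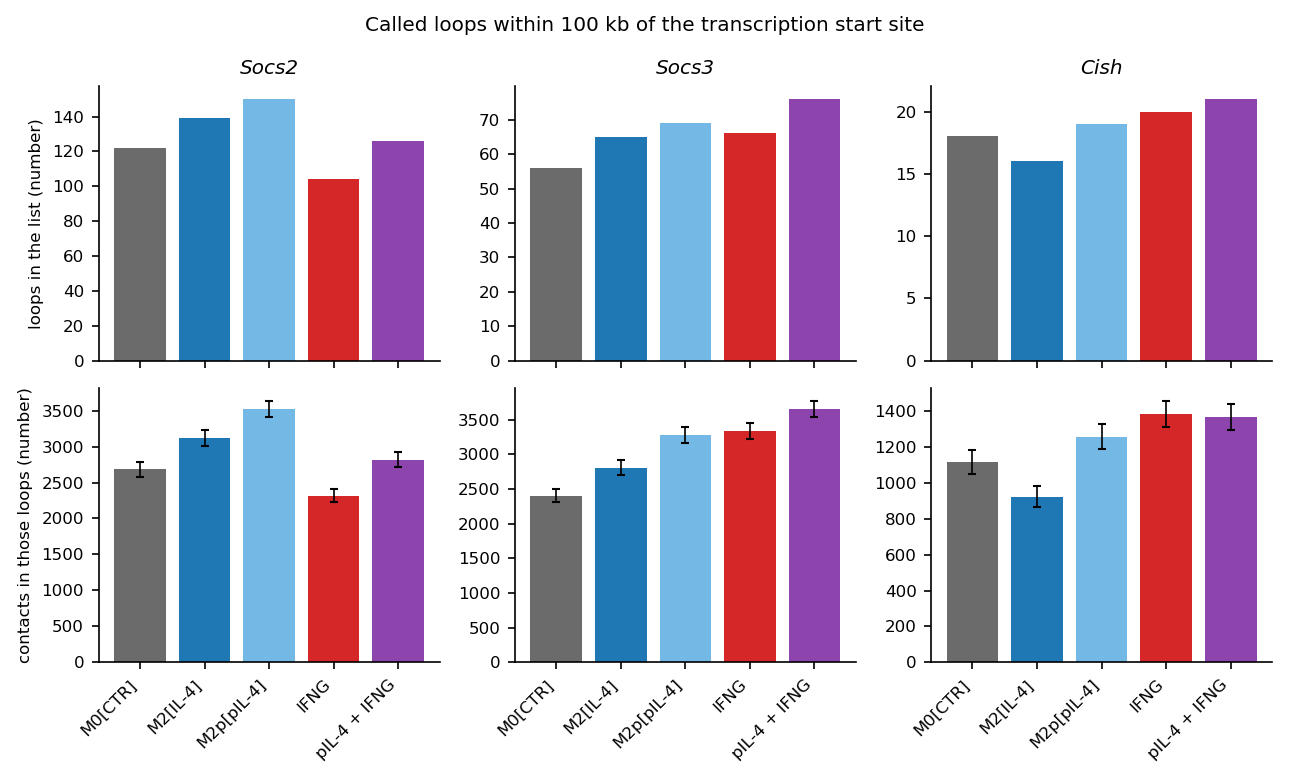
Bars give the number of called loops (top) and the contacts in them (bottom) within 100 kb of the TSS of Socs2, Socs3 and Cish, one bar per group list; whiskers are exact 95% Poisson intervals of the contacts. Socs2 runs from 104 to 150 loops, Socs3 from 56 to 76 and Cish from 16 to 21, each on its own axis from 0.

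Most loops of the Socs2 window reached a stretch with no protein-coding gene. All but 1 to 3 loops in a list that left the window went downstream of Socs2, to lower coordinates: 121 of 122, 135 of 139, 147 of 150, 103 of 104 and 124 of 126. Most partners fell in the 230 kb between Plxnc1, a receptor for a semaphorin, and Cradd, an adaptor with a death domain (chromosome 10, 94944836-95174745), which begins 242 kb and ends 472 kb from the Socs2 TSS. This stretch held the partner of 117, 125, 142, 98 and 117 Socs2 loops in the order of groups above, or 89.9 to 95.9% of them. GENCODE lists 6 genes in it, of which 3 are lincRNAs and 0 are protein-coding. Within this stretch, the bin 95010001-95020000 was a partner in M2p[pIL-4] and in no other list. In the 50 kb that hold this bin (95000001-95050000), partners numbered 28, 27, 45, 25 and 29 in the order of groups. The median span of a Socs2 loop was 360 to 390 kb, and no Socs2 loop joined adjacent bins in any list. The window also holds the TSSs of Cradd, Mrpl42 and Ube2n. In each list, 12 to 16 of its loops ended in the Socs2 TSS bin, and the others were assigned to Socs2 by the window alone.

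The bin of the Socs2 TSS (95410001-95420000) itself had 12 loops for M0[CTR], 16 for M2[IL-4], 12 each for M2p[pIL-4] and IFNG and 14 for pIL-4 + IFNG, more than at least 99.4% of genes. Their contacts came to 330 (295-368), 380 (343-420), 297 (264-333), 321 (287-358) and 340 (305-378), summed over the pairs that each list called, which differ between lists. The TSS bin kept 6 partners in every list, and none overlapped a protein-coding gene. The partner at 95090001-95100000, 320 kb downstream, had 44, 33, 41, 52 and 30 contacts in the order of groups. The next bin, 95100001-95110000, had 44, 31, 38, 33 and 48. The pair of CTCF matches shown above for Socs2 partner bins lies in these 2 bins. The second bin also held a minus strand match with 1 mismatch (95109787-95109816), which is not shown above. The bin at 95110001-95120000 had 26, 29, 29, 34 and 35 contacts, and that at 95070001-95080000 had 27, 22, 18, 20 and 22. The farthest constant partners, at 94990001-95000000 and 95000001-95010000, had 29, 22, 25, 20 and 14 contacts, and 31, 25, 20, 16 and 21. At counts of this size the intervals of most lists overlap, and no group was highest at all 6 partners. Loops of the TSS bin called in 1 list only included partners inside Cradd in M2[IL-4] (32 contacts at 100 kb and 31 at 140 kb) and in IFNG (32 at 160 kb), and a partner in Plxnc1 in M2p[pIL-4] (16 at 510 kb). M2p[pIL-4] alone also called the TSS bin with 95010001-95020000 (23 contacts at 400 kb).

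**Figure D2:**
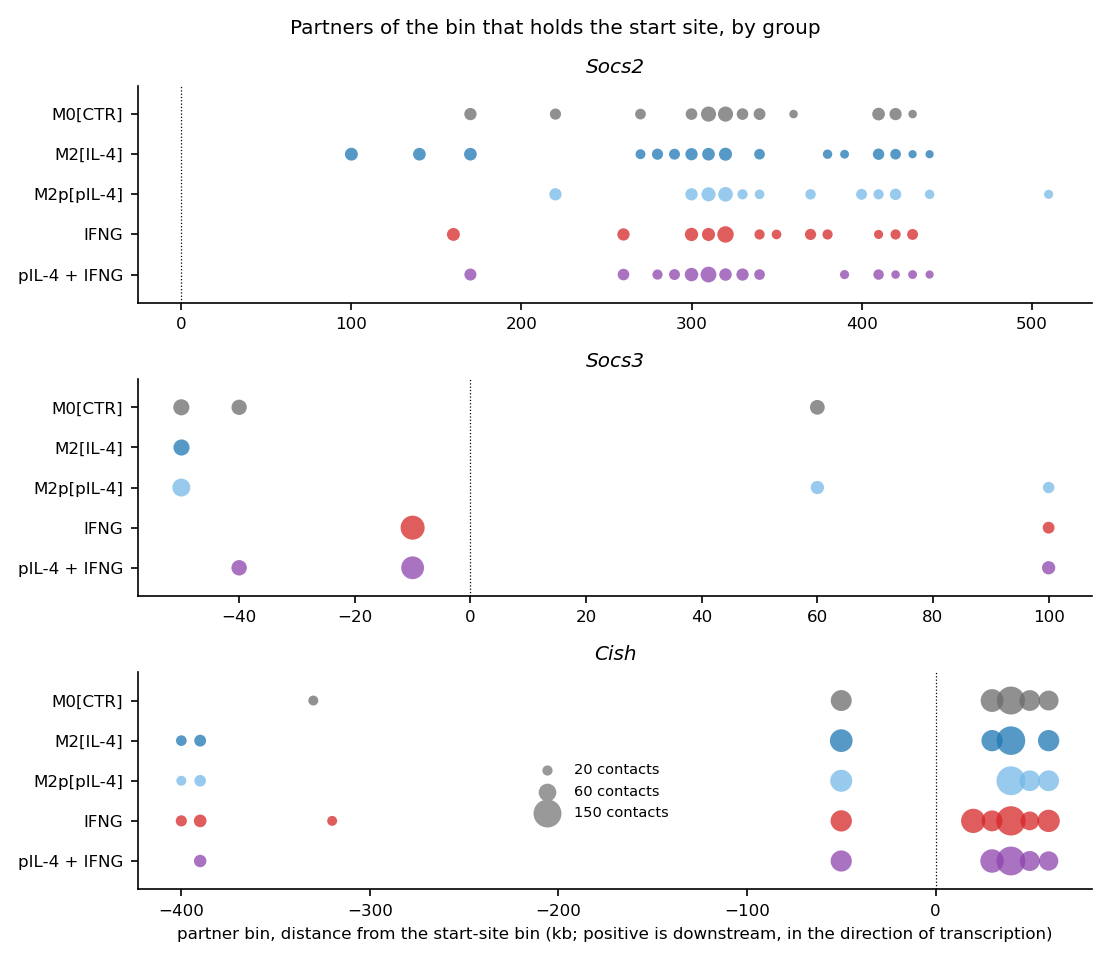
Each point is a partner of the 10 kb bin that holds the TSS, placed by its distance from that bin in kb (positive is downstream in the direction of transcription), with one row per group and an area that grows with contacts. Socs2 partners cluster 260 to 440 kb downstream in every group, Socs3 has 1 to 3 partners per group within 100 kb, and Cish partners lie 20 to 60 kb downstream, 50 kb upstream and 320 to 400 kb upstream.

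Along the Socs2 window, loop ends were most frequent from the TSS bin to about 68 kb upstream. In M0[CTR], 88 loops ended in the TSS bin or upstream of it and 34 in the bins downstream. The other lists had 106 and 33 (M2[IL-4]), 107 and 43 (M2p[pIL-4]), 91 and 13 (IFNG) and 98 and 28 (pIL-4 + IFNG). The lower loop number of Socs2 in IFNG thus lay downstream of the TSS, where the log2 ratio of IFNG over M0[CTR], scaled to list length, was -1.36 (-2.48 to -0.47). From the TSS bin upstream it was 0.01 (-0.43 to 0.45). For pIL-4 + IFNG over M2p[pIL-4] the values were -0.59 (-1.34 to 0.12) downstream and -0.11 (-0.52 to 0.30) upstream. This split was chosen after the values were seen, and how many genes show such a split was not counted. The intervals count touching bin pairs as independent loops, so they are too narrow where neighbouring pairs are called together. Of the 34 downstream loops of M0[CTR], 29 had an IFNG loop with both ends within 25 kb, and at the 5 bin pairs called in both lists the contacts were 115 in M0[CTR] and 110 in IFNG. The lists thus differed in how many neighbouring bin pairs were called there. The part of the window's loop density in these matches was not tested.

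**Figure D3:**
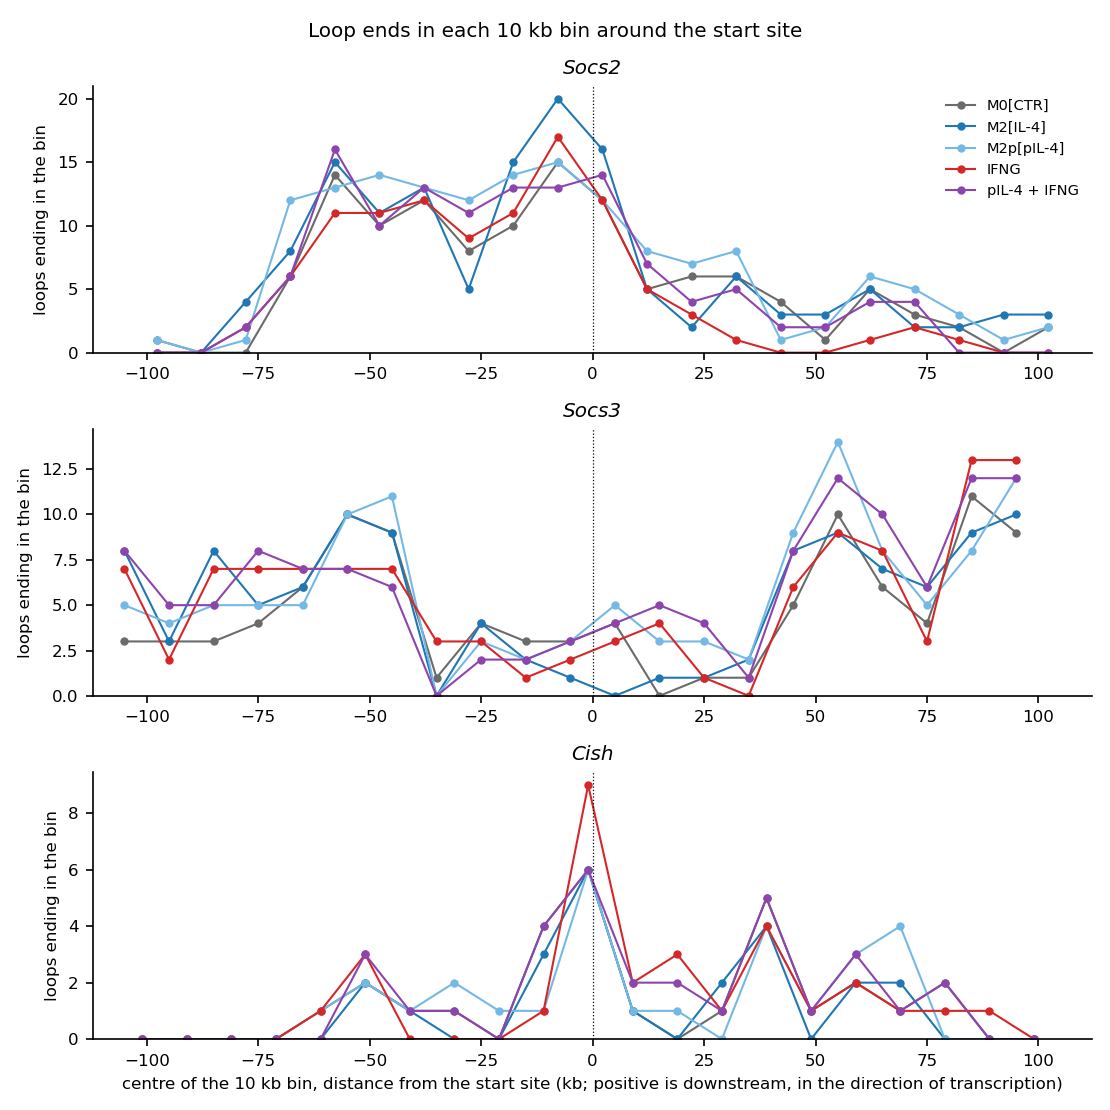
Lines give, for each group, the number of loops that end in each 10 kb bin of the window, by the distance of the bin's centre from the TSS in kb (positive is downstream). The IFNG line of Socs2 lies at or below the M0[CTR] line in all bins downstream of the TSS bin, Socs3 has few loop ends near its TSS and many 45 to 105 kb away, and Cish peaks at its TSS bin with 6 to 9 loops.

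At Socs3, the loops that all lists shared passed over the TSS bin and did not end in it. Of 14 bin pairs called in all 5 lists within its window, 14 had the TSS bin between their ends and 0 ended in it. They joined bins in and beside Tha1, which encodes threonine aldolase (117860001-117920000), with the end of Pgs1, an enzyme of cardiolipin synthesis, and with Dnah17, an axonemal dynein, over 100 to 220 kb. The pair with the most contacts in M0[CTR], 117910001-117920000 with 118020001-118030000, had 72, 47, 54, 67 and 55 contacts in the order of groups. The pair 117880001-117890000 with the same bin had 70, 61, 66, 62 and 61, and the pair 117860001-117870000 with it had 60, 36, 56, 48 and 43. These pairs were picked by their M0[CTR] contacts, so M0[CTR] being highest in them is no result. The pair 117900001-117910000 with the same bin had 33, 39, 47, 32 and 34, and there M2p[pIL-4] was highest and IFNG lowest. For Socs2, 31 of 38 such pairs also spanned the TSS bin and 6 ended in it, and for Cish 0 of 5 spanned it and 3 ended in it. Most constant pairs of Socs2 thus passed over its TSS bin too, and the share over all genes was not counted.

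The Socs3 TSS bin (117970001-117980000) had 3 loops for M0[CTR], 1 for M2[IL-4], 3 after washout, 2 with IFNG and 3 with pIL-4 + IFNG, with 137 (115-162), 50 (37.1-65.9), 121 (100-145), 138 (116-163) and 180 (155-208) contacts. In all, 34.8 to 39.8% of protein-coding genes had a loop from their TSS bin. The adjacent bin, which holds the Pgs1 TSS 16.2 kb upstream of Socs3, was called in IFNG with 111 contacts and in pIL-4 + IFNG with 100, and in no other list. The bin at the end of Pgs1 and Dnah17 (118020001-118030000) had 50 contacts before IL-4, 50 with IL-4 and 62 after washout, and was called in neither list of cells given interferon-gamma. The Tha1 bin 100 kb downstream was called in M2p[pIL-4] (25), IFNG (27) and pIL-4 + IFNG (34). The remaining partners were 117910001-117920000, in M0[CTR] (42) and M2p[pIL-4] (34), and 118010001-118020000, in M0[CTR] (45) and pIL-4 + IFNG (46). No partner of the Socs3 TSS bin was called in all 5 lists. A pair that a list lacks was not called there, and its contacts are not known. Of the 134 bin pairs of the Socs3 window, 4 (2.99%) were called in both lists with interferon-gamma and no other, against 2.11% of all 153264 bin pairs, so this pattern was about as frequent as elsewhere.

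The annotated TSS lies near the edge of its bin, and the gene body and the RefSeq start lie in the neighbouring bin, 117960001-117970000. That bin had 4 loops with 251 contacts (221-284) for M0[CTR], 0 loops for M2[IL-4], 5 with 334 (299-372) after washout, 3 with 190 (164-219) for IFNG and 4 with 241 (212-273) for pIL-4 + IFNG. M2[IL-4] was the lowest list in both bins. Within 25 kb of the TSS, Socs3 had 14, 8, 17, 11 and 17 loops in the order of groups. On that narrow window the log2 ratio was -0.86 for M2[IL-4] over M0[CTR] and 0.78 for M2p[pIL-4] over M2[IL-4], both past 1.5-fold. Over all genes with a loop in that window, 19.7% were 1.5-fold or more lower in the first comparison and 20.7% were 1.5-fold or more higher in the second. Loops between adjacent bins were absent from the Socs3 window in M0[CTR] and numbered 4, 3, 6 and 5 in the other lists, and adjacent bins made up 4.50 to 5.66% of whole lists.

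Cish had the fewest loops of the 3 genes, and its median loop had more contacts than the median loop of the same span. Over the median contacts of loops of the same span in a list, the median Cish loop stood at 1.15 to 1.38, against 1.00 to 1.07 for Socs2 and 0.967 to 1.03 for Socs3. The share of genes with a median this high was not counted. The Cish TSS bin (107290001-107300000) had 6 loops in each list except IFNG, which had 9, with contacts of 512 (469-558), 479 (437-524), 463 (422-507), 687 (637-740) and 531 (487-578). These sums cover only the pairs that each list called, which differ between lists. The IFNG sum includes 113 contacts at a bin called in no other list. How many genes differ as much at their TSS bin was not counted. The strongest partner in every list was the bin that holds the TSS of Hemk1, a methyltransferase that acts on release factors of translation, 40 kb downstream, with 150, 157, 160, 165 and 160 contacts. The bin 60 kb downstream had 76, 87, 83, 96 and 72, and a bin 50 kb upstream outside protein-coding genes had 84, 99, 93, 87 and 86. These 3 partners were called in all 5 lists, and their counts differed by less than the counting intervals between most lists. The CTCF matches shown for the Cish TSS bin and the Hemk1 bin face each other. So did a plus and a minus strand match in 3 of the 5 constant Cish pairs, in 1 of 14 for Socs3 and in 6 of 38 (15.8%) for Socs2. Among all 3016 constant bin pairs of chromosomes 9, 10 and 11 the share was 19.1%, so facing matches were not more frequent at Socs2 than elsewhere. Without a mismatch, 0 of 38, 0 of 14 and 0 of 5 pairs of Socs2, Socs3 and Cish had facing matches, against 1.76%.

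The other Cish partners differed between lists, and were named after their values were seen. The bins 30 kb and 50 kb downstream were each missing from 1 list, M2p[pIL-4] and M2[IL-4]. The bin 20 kb downstream was called in IFNG only, with 113 contacts. A bin in Dock3, an exchange factor for small GTPases, 390 kb upstream was called with 27, 26, 31 and 30 contacts in all lists but M0[CTR]. The neighbouring bin with the TSS of Manf, a protein secreted under stress of the endoplasmic reticulum, was called in M2[IL-4] (22), M2p[pIL-4] (19) and IFNG (24). In M0[CTR] the same Manf bin was called with the bin next to Cish, which holds the TSS of the p38-activated kinase Mapkapk3, with 27 contacts. The far contact was thus listed in M0[CTR] 10 kb away. Partners in Dock3 called once were 330 kb upstream in M0[CTR] (19 contacts) and 320 kb upstream in IFNG (19). Of the 42 bin pairs of the Cish window, 1 (2.38%) was called in all lists but M0[CTR], against 1.82% of all 153264 bin pairs. IFNG alone called 5 (11.9%, against 9.40%) and M0[CTR] alone called 4 (9.52%, against 8.70%). These patterns were thus about as frequent as elsewhere. The Mapkapk3 TSS lies 6.1 kb from that of Cish, and every Cish loop was also within 100 kb of Mapkapk3, so the loops of these genes cannot be told apart at this window.

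Each question of the design, whether IL-4, its washout or interferon-gamma went with a different loop number, was put to the 3 genes as the ratio of (loops + 1) in 2 lists, each divided by the list's length. Past the fold means 1.5-fold or more. No gene of the 3 was past the fold in any of the 6 comparisons. For M2[IL-4] over M0[CTR] the log2 ratio was 0.06 (-0.30 to 0.43) for Socs2, 0.09 (-0.45 to 0.63) for Socs3 and -0.29 (-1.36 to 0.76) for Cish. Over the 16894 genes with a loop in either list, 15.3% were past the fold higher and 13.8% lower. For M2p[pIL-4] over M0[CTR] it was -0.05 (-0.40 to 0.31), -0.05 (-0.57 to 0.49) and -0.27 (-1.27 to 0.75), against 16.0% of all genes higher and 10.4% lower. For M2p[pIL-4] over M2[IL-4] it was -0.11 (-0.45 to 0.24), -0.13 (-0.64 to 0.38) and 0.02 (-1.01 to 1.09), against 15.7% and 12.0%. The negative signs of M2p[pIL-4] over M0[CTR] rest on the scaling: without scaling to list length these ratios were 0.30, 0.30 and 0.07. The intervals of Socs2 stay inside 1.5-fold in these 3 comparisons only while touching bin pairs count as separate loops, and those of Cish do not stay inside it. With touching pairs merged into 1 loop, the Socs2 ratios were -0.12, -0.53 and -0.41, and the second lies outside its interval above.

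For IFNG over M0[CTR] the log2 ratio was -0.27 (-0.66 to 0.12) for Socs2, 0.19 (-0.34 to 0.74) for Socs3 and 0.10 (-0.88 to 1.11) for Cish, against 16.6% of genes higher and 14.3% lower. For pIL-4 + IFNG over M2p[pIL-4] it was -0.23 (-0.59 to 0.12), 0.15 (-0.33 to 0.65) and 0.15 (-0.81 to 1.14), against 15.3% and 12.1%. For pIL-4 + IFNG over IFNG it was -0.01 (-0.39 to 0.38), -0.08 (-0.58 to 0.42) and -0.22 (-1.17 to 0.75), against 14.2% and 11.5%. Without scaling to list length, the pIL-4 + IFNG over IFNG ratios were positive, at 0.27, 0.20 and 0.07. In the 100 kb windows, lists with interferon-gamma thus had fewer Socs2 loops and more Socs3 and Cish loops, with and without IL-4 before, all within counting error. The direction of Socs3 depended on the window: at 50 kb the ratios were -0.09 for IFNG over M0[CTR] and -0.17 for pIL-4 + IFNG over M2p[pIL-4], and at 25 kb they were -0.36 and 0.02. When touching bin pairs were merged into 1 loop, Socs2 had 22, 22, 18, 12 and 20 loops. The IFNG over M0[CTR] ratio then became -0.86, past the fold, where 17.1% of genes were past the fold lower, and the pIL-4 + IFNG over M2p[pIL-4] ratio changed sign to 0.15.

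**Figure D4:**
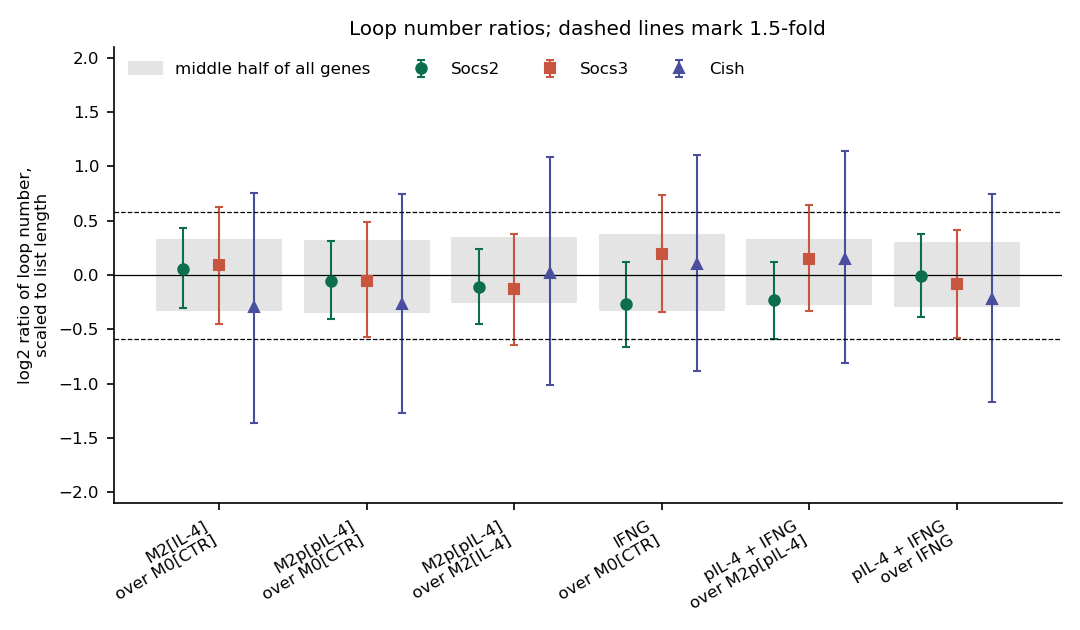
Points give the log2 ratio of loop number, scaled to list length, for Socs2, Socs3 and Cish in each of 6 comparisons, with exact 95% binomial intervals as whiskers; grey boxes span the interquartile range of all genes with a loop in either list. All 18 points lie between the dashed 1.5-fold lines.

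Loops gained in a list, with no loop of the reference list at both ends within 25 kb, numbered 1 to 11 at the 3 genes. M2[IL-4] over M0[CTR] gave 11 of 139 for Socs2 (7.91%), 2 of 65 for Socs3 (3.08%) and 1 of 16 for Cish (6.25%), against 13.6% of the whole list. M2p[pIL-4] over M0[CTR] gave 7 of 150, 3 of 69 and 1 of 19, against 14.1%. IFNG over M0[CTR] gave 3 of 104, 4 of 66 and 2 of 20, against 13.0%, and pIL-4 + IFNG over M2p[pIL-4] gave 5 of 126, 1 of 76 and 3 of 21, against 11.4%. For Socs2 and Socs3 each share was below that of the whole list, except that the interval reached it for Socs2 in M2[IL-4] over M0[CTR] and for Socs3 in IFNG over M0[CTR]. For Cish each interval held the share of the whole list, and in pIL-4 + IFNG over M2p[pIL-4] its share was higher, at 14.3% (3.05-36.3). The windows of Socs2 and Socs3 are dense in loops, and the part of that density in these shares was not tested. The counts depend on that distance: with the same bins required, M2[IL-4] over M0[CTR] gave 65, 30 and 6.

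Sorted by their course over IL-4 and washout, Transient loops (in M2[IL-4], without a match in M0[CTR] or M2p[pIL-4]) numbered 7 of 139 for Socs2 (5.04%), 0 of 65 for Socs3 and 1 of 16 for Cish (6.25%), against 7.23% of the whole list. Memory loops, gained in M2[IL-4] and matched after washout, numbered 4 (2.88%), 2 (3.08%) and 0 of the same loops, against 6.32%. Primed loops, present in M2p[pIL-4] alone of these 3 lists, numbered 3 of 150 (2.00%), 0 of 69 and 1 of 19 (5.26%), against 8.35%. No class thus had a higher share at these genes than in the whole list. The classes need loops without a match, and the part of loop density in these shares was not tested. For Cish each class holds 0 or 1 loop, too few to compare shares. A Transient loop joined the Socs2 TSS bin to a bin within Cradd (32 contacts), and a Primed loop joined it to Plxnc1 (16). The Memory loops of Socs3 were the adjacent bins 117920001-117930000 and 117930001-117940000 (113 contacts) and a pair within Dnah17 (68). The Primed loop of Cish lay within Dock3 (24). Loops of M0[CTR] without a match in M2[IL-4] and with a match again after washout numbered 1 of 122 for Socs2 (0.820%) and 0 for Socs3 and Cish, against 4.92% of the whole list. Those without one after washout numbered 2 for Socs2 (1.64%), 0 for Socs3 and 1 of 18 for Cish (5.56%), against 5.86%. The Cish loop of this last kind joined its TSS bin to Dock3 (19).

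Contacts at bin pairs called in all 5 lists compare the same places in every group. At 38 Socs2 pairs they came to 990 (929-1054), 997 (936-1061), 1091 (1027-1158), 983 (923-1046) and 1011 (950-1075) in the order of groups. At 14 Socs3 pairs they came to 626 (578-677), 529 (485-576), 598 (551-648), 594 (547-644) and 570 (524-619), with M2[IL-4] lowest. At 5 Cish pairs they came to 456 (415-500), 505 (462-551), 492 (449-537), 504 (461-550) and 473 (431-518), with M0[CTR] lowest. The ratio of M2[IL-4] over M0[CTR] at Socs3 was 0.845 (0.751-0.950), lower at 10 of 14 pairs, against 0.998 over all 14063 such pairs. As a log2 ratio this is -0.243, and at all bin pairs called in both lists of the comparison it was -0.093. M2p[pIL-4] over M0[CTR] and IFNG over M0[CTR] were each lower at 9 of 14 Socs3 pairs. After washout, M2p[pIL-4] over M2[IL-4] was 1.13 (1.00-1.27) at Socs3, higher at 11 of 14 pairs, against 1.04 over all. Both ratios use the same M2[IL-4] list, so they are not separate results. At Cish, M2[IL-4] over M0[CTR] was 1.11 (0.974-1.26), higher at 5 of 5 pairs. M2p[pIL-4] over M0[CTR] was 1.08 (0.948-1.23), higher at 5 of 5, and IFNG over M0[CTR] was 1.11 (0.972-1.26), higher at 4 of 5. Of the 18 ratios, 1 had an interval that left out the ratio over all pairs, the Socs3 one for M2[IL-4] over M0[CTR]. Over the 11299 genes with such pairs, 5.78% had an interval like that in this comparison. In the other comparisons, in the order of the loop number ratios, the share was 4.51%, 3.46%, 5.41%, 4.34% and 3.87%, so 1 in 18 is near the background.

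**Figure D5:**
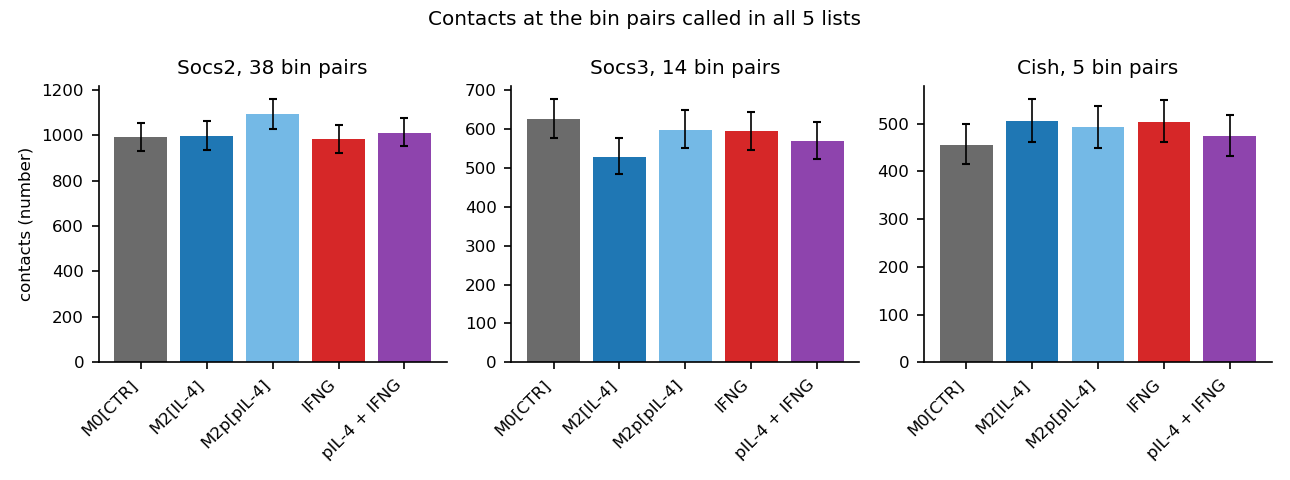
Bars give the summed contacts at the bin pairs called in all 5 lists near Socs2 (38 pairs), Socs3 (14) and Cish (5), one bar per group, with exact 95% Poisson intervals. Socs2 ranges from 983 to 1091, Socs3 from 529 in M2[IL-4] to 626 in M0[CTR], and Cish from 456 to 505.

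The share of bin pairs that recurred was then counted. Of 275 Socs2 pairs, 38 (13.8%) were called in all 5 lists and 117 (42.5%) in 1 list. Socs3 had 14 of 134 (10.4%) and 45 (33.6%), and Cish had 5 of 42 (11.9%) and 22 (52.4%). Over all 153264 pairs the shares were 9.18% and 55.5%.

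Other genes of the pathway were taken from a pair of lists, in which Socs1 is left out. Of Socs4, Socs5, Socs6 and Socs7, 0 of 4 were past the fold in any comparison, and their median log2 ratio ran from -0.26 to 0.17. Socs7 had 18, 25, 29, 25 and 27 loops in the order of groups, and Socs5 had 30, 29, 26, 22 and 28. Of 12 other negative regulators, 0 were past the fold lower. Pias1, a SUMO ligase, was past the fold higher in M2[IL-4] over M0[CTR] with 38 loops against 22. Ptpn11, which encodes the phosphatase SHP2, was higher in IFNG over M0[CTR] (23 against 10) and in pIL-4 + IFNG over M2p[pIL-4] (23 against 12). Ptprc, which encodes CD45, had 23 loops in pIL-4 + IFNG, against 14 in M2p[pIL-4] and 11 in IFNG. The list's medians ran from 0.03 to 0.19, and the counts of 0 to 2 of 12 are near the background shares given above. Usp18, which holds back interferon receptors, had 15, 23, 25, 17 and 29 loops, and was not past the fold.

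Genes whose scaled loop numbers ran most like those of each gene over the 5 lists were described by Pearson's r, without a test, since 5 lists are few and any of 21755 genes could be picked. For Socs2 they were Psmd4 (0.999), Fsd1l (0.998) and Rara (0.998), all on other chromosomes. For Socs3 they were Upp1 (0.999) and the neighbours Dexi and Clec16a (0.996 each). For Cish they were Mapkapk3 (1.000), which shares its window, Plekho1 (0.998) and Ston2 (0.995).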

How the data were processed

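Hi-C was made from 10 BMDM samples in 5 groups. The authors digested chromatin with MboI and followed a HiChIP protocol without its immunoprecipitation; their methods describe mapping with Bowtie2 in HiC-Pro to mm10, which is GRCm38. The deposited lists, 1 per group, hold pairs of 10 kb bins with whole-number contact counts and no value per replicate. The methods describe HICCUPS loops at 25 kb, so the caller and threshold of these 10 kb lists are not given in the sources used here. The study's text states a sequencing depth per sample, but the lists hold none, so depth was not used. Group names came from the sample labels, and 0 columns were unmapped. Loop lists give no expression, so the macrophage label was not checked against markers.

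From these lists, Python 3 scripts (numpy, pandas and scipy) counted loops per window, scaled them by list length with a pseudocount of 1, and gave exact Poisson or binomial 95% intervals. Counting was tested on simulated data. Gene models came from GENCODE 21, promoter windows and genome from RefSeq GRCm38.p6, and every bin on the nuclear chromosomes fitted their lengths. Transient, Memory and Primed follow the names the study uses, but rest here on calls and not on a differential test. No test between groups was made, since each group has 1 list. Named genes were the 3 genes, both pathway lists, genes with a TSS within 100 kb or overlapped by partners of the TSS bin, and up to 6 loops of that bin per gene by contacts. The members and lists were chosen with earlier results of these data known. Alternatives were other windows, scalings, pseudocounts, matching distances and merging; the bin of the RefSeq start, the alternatives on the pathway lists, the motif searches and the split of the Socs2 window were chosen after seeing the data.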

Additional observations from a re-analysis of the deposited data

How the results depend on the processing

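Merging touching bin pairs gave Socs2 log2 ratios of -0.53 for M2p[pIL-4] over M0[CTR], -0.86 for IFNG over M0[CTR], 0.15 for pIL-4 + IFNG over M2p[pIL-4] and 0.49 for pIL-4 + IFNG over IFNG. A window of 25 kb gave Socs3 ratios of -0.86 for M2[IL-4] over M0[CTR], 0.78 for M2p[pIL-4] over M2[IL-4] and -0.36 for IFNG over M0[CTR]. Gained loops are listed in the order M2[IL-4], M2p[pIL-4] and IFNG over M0[CTR], then pIL-4 + IFNG over M2p[pIL-4]. With the same bins required they were 65, 69, 43 and 42 for Socs2, 30, 31, 34 and 38 for Socs3, and 6, 11, 10 and 11 for Cish. With 50 kb allowed, the first 2 and the last were 6, 3 and 2 for Socs2 and 0, 0 and 1 for Cish, and Socs3 had 0 in each. In a window of 50 kb, the first 3 were 6, 4 and 1 for Socs2 and 1, 1 and 2 for Socs3, and M2p[pIL-4] and IFNG over M0[CTR] gave 0 and 1 for Cish. A stricter or looser match changes these counts by construction; the cause of the other changes was not tested. No contact ratio at shared pairs moved beyond its interval under either alternative. Of 198 alternatives for 48 results, the other 161 stayed within their interval or within 1.5 times the count. On the pathway lists, the count past the fold in 1 direction and comparison ran from 0 to 2 for Socs4 to Socs7 and from 0 to 4 for the other regulators.

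No paired analysis was possible because no list holds a value per replicate; for the same reason no replicate could be left out. Lists name only called pairs, so a pair missing from a list may still have contacts, and a longer list can reflect deeper sequencing or another call threshold; these cannot be told apart here. With 16 to 21 loops, a 1.5-fold difference at Cish is not detectable.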
